A study of Mus musculus with 28 samples.

Results

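Cytosolic ribosomal protein genes encode the proteins of the small (Rps) and large (Rpl) subunit of the ribosome. They were taken as the genes whose symbol is Rps or Rpl followed by a number, with an optional ending a, al, l, l1 or x, together with Rpsa, Rplp0, Rplp1 and Rplp2, and with names marked -ps (pseudogenes) left out. This gave 87 of the 55487 genes in the count table, and 82 of them passed the filter of at least 10 counts in at least 3 libraries. The other 5 were Rpl39l with 167 counts over all 28 libraries, Rpl32l with 66, Rpl6l with 56, Rpl10l with 1 and Rps12l1 with 0. The GENCODE M21 annotation lists 4 of the 87 as pseudogenes: Rps4l, which passed the filter, and Rpl32l, Rpl6l and Rps12l1, which did not.

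RNA came from the hypothalamus of 10 to 13 week old male and female mice carrying LepRb-eGFP-L10a, a reporter that places an eGFP tag on the large subunit protein L10a in cells expressing the long leptin receptor, LepRb. Tagged ribosomes were captured with eGFP antibodies together with their RNA (bead fraction), and the supernatant was kept (depleted fraction), so that each of 14 lysates gave 1 library of either kind. Food had been withdrawn at lights-on in every group, and the mice received metreleptin (leptin, 5 mg per kg, intraperitoneally) or vehicle, which the protocol calls saline and the sample labels PBS. The lysates were 1 leptin and 2 vehicle lysates of LepRb-eGFP-L10a mice that were also Lep ob/ob (no functional leptin) at 10 h, 3 leptin and 1 vehicle lysate of wild-type (WT) reporter mice at 10 h, and 3 leptin and 4 vehicle lysates of WT reporter mice at 3 h. All groups, controls included, carry the reporter. How many animals went into a lysate is not stated in the labels, so the p-values measure the spread between these samples. Each of ob/ob 10 h, WT 10 h and WT 3 h was also 1 sequencing run, so genotype, time and run cannot be told apart.

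Ribosomes are built from these proteins and ribosomal RNA, and the messages of these genes are among the more abundant in any cell. In vertebrates they begin with a run of pyrimidines at the cap, the TOP motif, through which the kinase complex mTORC1 and the RNA-binding protein Larp1 set how strongly they are translated. The genes have spawned many processed pseudogenes, so that short reads can match several places in the genome. L10a itself is the protein that carries the tag in this method.

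Library totals were 21277982 to 42267040 counts in beads and 19649105 to 41804049 in the depleted fraction. All 8 LepRb cell markers listed, among them Lepr, Agrp and Pomc, were higher in beads than in the depleted fraction (median log2 fold change 3.84), and all 10 astrocyte, 10 oligodendrocyte and 10 microglia markers were lower (medians -1.20, -1.54 and -1.69). The glial index, the mean log2 of library-scaled counts (CPM) of those 30 glial markers, was highest among beads in the WT 3 h vehicle lysate f1, at 5.49. Growth hormone reached 548 CPM in beads of WT 3 h leptin lysate f2 and 57.0 CPM in those of WT 3 h vehicle lysate m3, against 21.8 CPM in the ob/ob leptin bead library, the next highest. Results were also computed without lysates f2 and m3.

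Ribosomal protein messages took up a larger share of the bead libraries. The 87 genes held 0.711% to 1.11% of a bead library (median 0.956%), against 0.490% to 0.570% of a depleted library (median 0.538%). These are shares of the counted reads. Of the 87 genes, 77 share sequence with at least 1 pseudogene row, and how reads with several matches were counted is unstated. The share of these messages in the RNA may therefore differ. No bead library reached down to the range of the depleted ones. The lowest bead values were 0.711% in WT 3 h vehicle lysate f1 and 0.785% in WT 3 h leptin lysate f2. Within a fraction, the groups by genotype, time and treatment overlapped in beads. In the depleted fraction the WT 10 h vehicle library was lowest, at 0.490%.

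**Figure D1:**
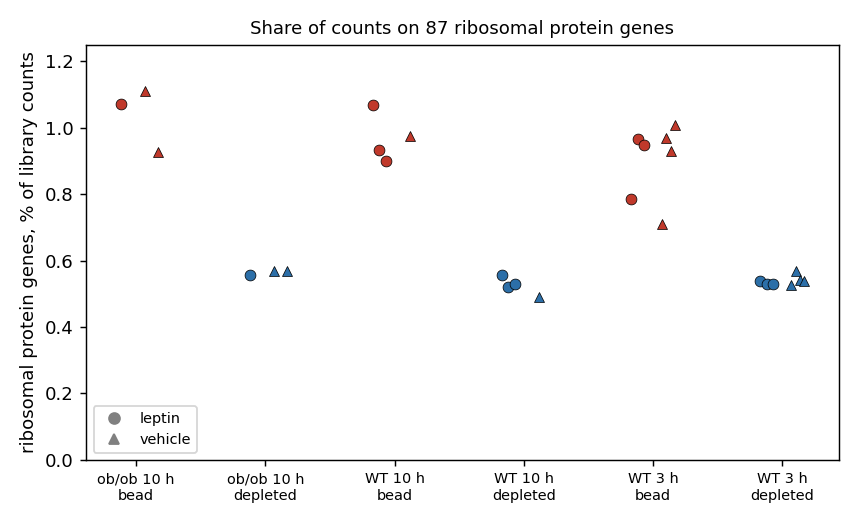
Percentage of each library's counts on the 87 ribosomal protein genes (vertical axis) in bead and depleted libraries of ob/ob 10 h, WT 10 h and WT 3 h mice. Each point is 1 library, circles for leptin and triangles for vehicle. The bead libraries lie between 0.711% and 1.11%, above every depleted library.

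The comparison of beads with the depleted fraction shows which messages are found on tagged ribosomes of LepRb cells relative to the rest of the tissue. Of the 82 genes tested, 74 were higher in beads, 2 were lower (Rpl5 and Rpl24) and 6 did not pass the threshold (edgeR quasi-likelihood test with the lysate as a block, adjusted p below 0.05). Across all 19682 genes tested, 38.6% were higher and 39.3% lower. The median log2 fold change of the ribosomal protein genes was 0.93, against -0.01 over all genes tested. Higher values in beads were seen in each of the 14 lysates for 67 of the 82 genes, compared with 22.0% of all genes tested, and in 13 lysates for 6 more. By subunit, 45 of 50 large subunit genes and 29 of 32 small subunit genes were higher, with medians of 0.89 and 0.95. In these bulk samples, fewer cells of a type and less RNA per cell cannot be told apart, and neither can transcript level and ribosome loading.

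**Figure D2:**
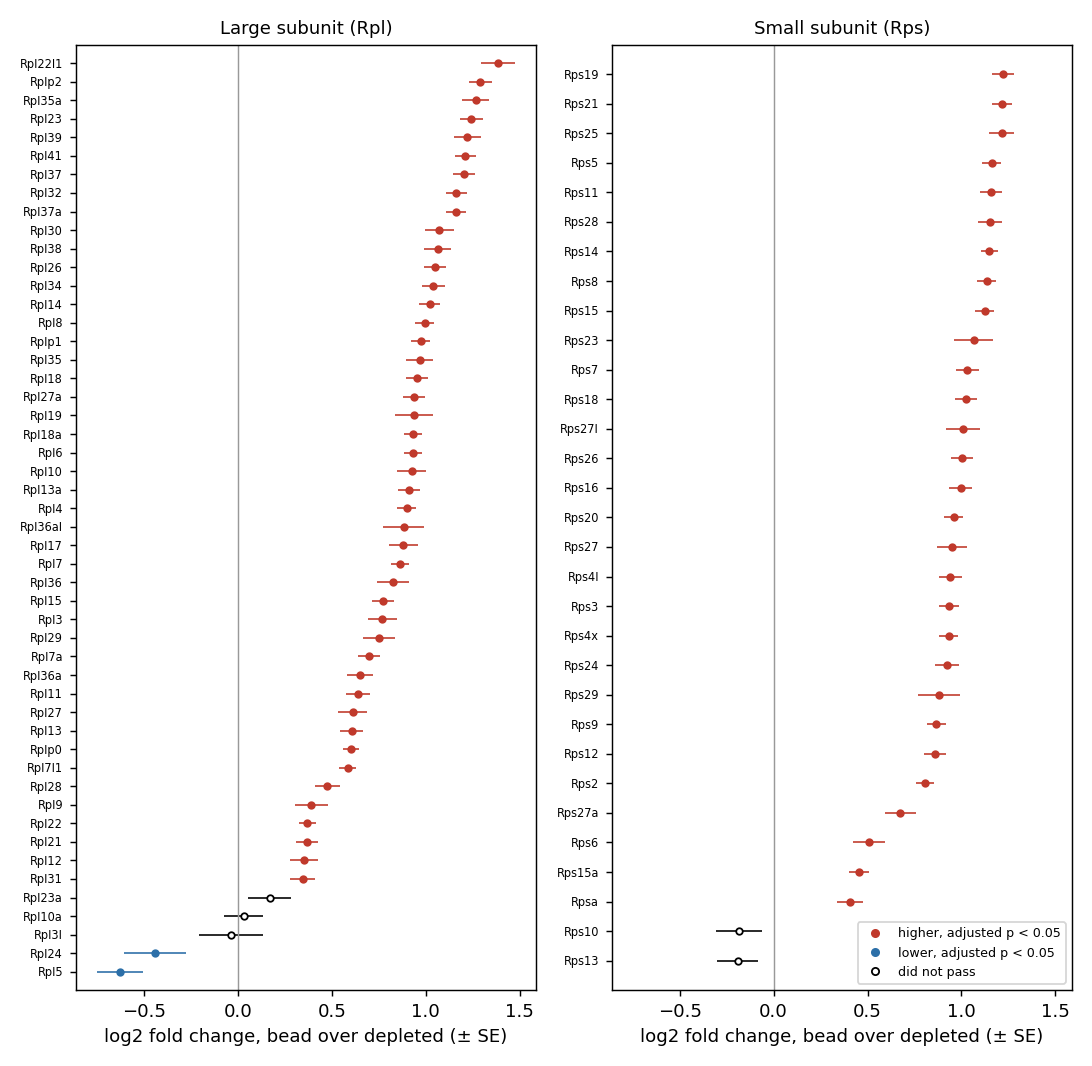
Log2 fold change of bead over depleted RNA with its standard error for ribosomal protein genes, by subunit and in order of size (14 lysates). Filled red points were higher and filled blue points lower at an adjusted p below 0.05, and open points did not pass; Rpl22l1 is highest at 1.39, and Rpl24 and Rpl5 are lowest at -0.44 and -0.63.

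The highest fold change belonged to Rpl22l1, a paralog of the large subunit protein Rpl22. Its level was 68.5 to 186 CPM in beads (median 130) and 39.2 to 55.4 CPM in the depleted fraction (median 43.6), with no overlap. The log2 fold change was 1.39 ± 0.09 (SE, n = 14 lysates; edgeR adjusted p = 3.95e-10), and it ranked 266 among all 19682 genes tested. Rplp2, an acidic protein of the ribosomal stalk, followed with 132 to 257 CPM in beads (median 192) and 65.6 to 99.4 CPM in the depleted fraction (median 77.4). Its log2 fold change was 1.29 ± 0.06 (edgeR adjusted p = 4.28e-13). Rpl35a, Rpl23, Rpl39 and Rps19 came next at 1.27, 1.24, 1.22 and 1.22, each higher in 14 of 14 lysates. Mutations of RPL35A and RPS19 are known causes of Diamond-Blackfan anaemia in humans.

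Sequence around the transcription start is shown for those of the 6 highest and the 6 lowest genes that have a single listed start in the RefSeq promoter table (build GRCm38.p6), because the TOP motif lies there. Each line runs 5′ to 3′ on the gene's strand from 50 bases before the start to 25 bases from it, and capitals mark the longest run of C or T within 25 bases of the start.
Rpl22l1, chr3:28805458-28805532, plus strand: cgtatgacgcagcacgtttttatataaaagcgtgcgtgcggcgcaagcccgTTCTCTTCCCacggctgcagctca
Rplp2, chr7:141447601-141447675, plus strand: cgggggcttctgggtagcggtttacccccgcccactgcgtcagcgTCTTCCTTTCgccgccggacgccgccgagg
Rpl23, chr11:97782415-97782489, minus strand: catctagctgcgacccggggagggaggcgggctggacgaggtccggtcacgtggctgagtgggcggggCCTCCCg
Rpl39, chrX:37085198-37085272, minus strand: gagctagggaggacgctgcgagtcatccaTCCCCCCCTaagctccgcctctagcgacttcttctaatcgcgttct
Rps10, chr17:27635220-27635294, minus strand: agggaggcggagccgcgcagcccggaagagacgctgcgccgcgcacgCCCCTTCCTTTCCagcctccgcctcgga
Rps13, chr7:116334166-116334240, minus strand: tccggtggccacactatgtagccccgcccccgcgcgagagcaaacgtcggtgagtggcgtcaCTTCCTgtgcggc
Rpl24, chr16:55966225-55966299, plus strand: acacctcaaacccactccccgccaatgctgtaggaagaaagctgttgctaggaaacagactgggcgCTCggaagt
Rpl5, chr5:107900478-107900552, plus strand: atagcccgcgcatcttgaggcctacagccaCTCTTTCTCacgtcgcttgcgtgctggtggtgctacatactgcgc
Among the high genes the runs were 10 bases long in Rpl22l1 and Rplp2, 9 in Rpl39 and 6 in Rpl23, and among the low genes 13 in Rps10, 9 in Rpl5, 6 in Rps13 and 3 in Rpl24. The runs of Rplp2 and Rps10 span the listed start, while those of Rpl39 and Rpl5 end 13 and 12 bases before it. Of the 87 genes, 64 had an entry in the table, and 31 of these (48.4%) held a run of at least 8 pyrimidines on the gene's strand within the 50 bases around the first listed start. Over all 27025 genes of the table the share was 19.4%. On the opposite strand the same search found such a run in 7.81% of the ribosomal protein genes and 21.1% of all genes.

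Several genes were described for their role, whatever their values. The stalk protein Rplp1 had 265 to 439 CPM in beads and 133 to 218 CPM in the depleted fraction (log2 fold change 0.97 ± 0.05, SE), and the scaffold of the stalk, Rplp0, rose less, by 0.60 ± 0.04. Rpsa, which is also known as the laminin receptor, was higher by 0.41 ± 0.07. Rps6, the ribosomal substrate of the S6 kinases downstream of mTORC1, was higher by 0.51 ± 0.09, with 3.75 to 8.35 CPM in beads and 2.85 to 4.10 CPM in the depleted fraction. Rps27a, which is made as a fusion with ubiquitin, was higher by 0.67 ± 0.08. Rpl38, known in mice for its part in the translation of Hox messages, was higher by 1.06 ± 0.07. Rpl11, which with Rpl5 binds the p53 regulator Mdm2 when ribosome assembly is disturbed, was higher by 0.64 ± 0.07. Each of these adjusted p-values was 2.24e-05 or smaller in edgeR.

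Paralogs kept the same order of enrichment in all 14 lysates in some pairs only. Rpl22 itself had 99.1 to 172 CPM in beads (median 135) and 95.7 to 121 CPM in the depleted fraction (median 101), and its log2 fold change was 0.37 ± 0.04, so that it overlapped between fractions while Rpl22l1 did not. Within a lysate, the log2 ratio of Rpl22l1 exceeded that of Rpl22 by 1.01 ± 0.26 (mean ± SD, n = 14) and did so in 14 of 14 lysates. Rpl7l1, a relative of Rpl7, showed the opposite order, at -0.28 ± 0.09 relative to Rpl7 and lower in each lysate. For Rps27l against Rps27, Rpl36al against Rpl36a and Rps4l against Rps4x the differences were 0.05 ± 0.37, 0.22 ± 0.34 and 0.01 ± 0.25. The first gene of the pair was higher in 10, 11 and 8 of 14 lysates. These SD are spreads of single lysates, and the mean differences were not tested. Rps4l is annotated as a transcribed processed pseudogene. Rpl3l, known as a muscle form of Rpl3, was at 0.236 to 0.775 CPM in beads and 0.288 to 0.860 CPM in the depleted fraction, and its fold change did not pass (-0.03 ± 0.17, edgeR adjusted p = 0.859). Relative to Rpl3 its log2 ratio was -0.77 ± 0.71 (mean ± SD), and it was the higher of the pair in 2 of 14 lysates. These were the WT 3 h vehicle lysates m1 and m3, in which Rpl3 itself was lowest. Rpl39l and Rpl10l, known from the testis, were too low to test.

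Rpl5 and Rpl24 were lower in beads. Rpl5 had 1.14 to 2.64 CPM in beads (median 1.77) and 1.83 to 3.84 CPM in the depleted fraction (median 3.12), a log2 fold change of -0.63 ± 0.12 (edgeR adjusted p = 0.000111), and was lower in 12 lysates. Rpl24 had only 456 counts in all, with 0.230 to 0.867 CPM in beads and 0.250 to 0.884 CPM in the depleted fraction, and fell by 0.44 on the log2 scale (SE 0.17, edgeR adjusted p = 0.0201). The call for Rpl24 was lost without the lysates m3 and f2 of WT 3 h (-0.37, adjusted p = 0.073), with vehicle lysates alone (-0.32, adjusted p = 0.272) and without the lysate as a block (-0.41, adjusted p = 0.0624). Rps13 and Rps10 stood at -0.19 ± 0.11 and -0.18 ± 0.12, and Rpl23a at 0.17 ± 0.11, none of which passed in edgeR.

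Levels and unique sequence were compared for the genes that did not follow the rest. Only 6.2% of the 50-base windows of the Rpl5 transcript were absent from all other transcripts of a GRCm38 annotation, and the figures were 18.3% for Rpl24, 17.0% for Rps13 and 14.3% for Rpl23a, with 43.2% for Rps10. Rpl3l, which also did not pass and was below 1 CPM, had 100% unique windows. Low shares were not confined to these genes. Rps27 (1.4%), Rpl35 (4.9%) and Rpl10 (7.9%) were higher in beads, by 0.95, 0.97 and 0.93. Among the 13 genes below 3 CPM in the depleted fraction, 6 were higher and 2 lower in beads (median 0.18), whereas 39 of 39 genes from 10 to 100 CPM and 15 of 15 above that were higher. Across the 82 genes the log2 fold change correlated with the log2 CPM of the depleted fraction (Pearson's r = 0.57, Spearman's rho = 0.50). The share of unique windows correlated with that CPM (r = 0.52, rho = 0.57), and less with the log2 fold change (r = 0.28, rho = 0.36). All points come from the same libraries, and read length and gene family are shared among them. Rows of pseudogenes of these genes were higher in beads, Rps13-ps1 by 1.004 ± 0.078, Rps10-ps1 by 0.99 ± 0.11, and, for the 2 genes called lower, Gm15500 (Rpl5) by 0.95 ± 0.14, Rpl5-ps2 by 0.75 ± 0.23 and Gm12254 (Rpl24) by 1.26 ± 0.24. Of 92 pseudogene rows tested that share sequence with a member, 78 were higher and 4 lower in beads (median 1.02). A row with few reads can pass the filter of 10 counts in 3 libraries through beads alone. This favours rows that are higher in beads, so the count and the median are biased upward. Gm12254 and Rpl5-ps2 were such low rows, at 0.375 and 0.328 CPM in beads and 0.152 and 0.192 CPM in the depleted fraction.
When each gene was summed with the pseudogene rows that share at least 50 such windows with it, an alternative chosen after seeing the data, 79 of 82 genes were higher and 0 lower in beads in edgeR. Rps13 and Rps10 then passed with 0.65 ± 0.07 and 0.42 ± 0.08. Rpl24 and Rpl5 moved to 0.22 ± 0.11 and 0.07 ± 0.07, with adjusted p = 0.0821 and 0.402. The pseudogene rows held 2.27% of the counts of members and pseudogenes together, and the median became 0.94. Their part was larger in the genes that moved. Rps13-ps1 held 4978 counts against 2101 on Rps13, and Rps10-ps1 2026 against 2201 on Rps10. Gm15500 held 1334 counts against 2109 on Rpl5, and Gm12254 218 against 456 on Rpl24. As these rows were higher in beads, the sums had to move up, and they do not give the level of the gene alone.

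Rpl10a, the gene of the tagged protein, was not enriched with the others. It had 5.30 to 12.4 CPM in beads (median 7.75) and 5.49 to 10.1 CPM in the depleted fraction (median 7.81). The log2 fold change was 0.03 ± 0.10 (edgeR adjusted p = 0.784, higher in 6 of 14 lysates), the 77th of the 82 genes. Its lysate values ran over more than 1 log2 unit, the lowest -0.56 in WT 10 h leptin lysate 2 and the highest 0.80 in WT 10 h leptin lysate 3. Within WT 10 h it was -0.08 ± 0.20, and without leptin lysate 3 it became -0.42 with adjusted p = 0.0376. Only 11.9% of its 50-base windows were unique, and summed with its pseudogene rows it reached 0.16 ± 0.08 (edgeR adjusted p = 0.0778). The labels do not state whether reads of the reporter transcript were counted on this gene.

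Lysates differed in how far the messages were enriched. The median log2 ratio of the 82 genes was lowest at 0.45 in WT 3 h vehicle lysate f1 and 0.66 in WT 3 h leptin lysate f2, and highest at 1.14 in WT 10 h leptin lysate 1. The bead glial index was 5.49 in f1 and 4.85 in f2, and 3.51 in WT 10 h leptin lysate 1. The lysates with the highest bead index were f1, ob/ob vehicle lysate 2 (5.02), WT 3 h vehicle lysate m1 (4.91) and f2. The same lysates had the lowest medians, with 0.78 in ob/ob vehicle lysate 2 and 0.84 in m1. The order was not strict, as f2 was below ob/ob vehicle lysate 2 and m1 in both index and median. The WT 10 h vehicle lysate had a higher index than WT 10 h leptin lysate 3 (4.61 against 3.74). Its median was also higher (1.04 against 0.92). The part of glial RNA in these ratios was not tested. Within a lysate, 72 to 81 of the 82 genes were above 0.

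**Figure D3:**
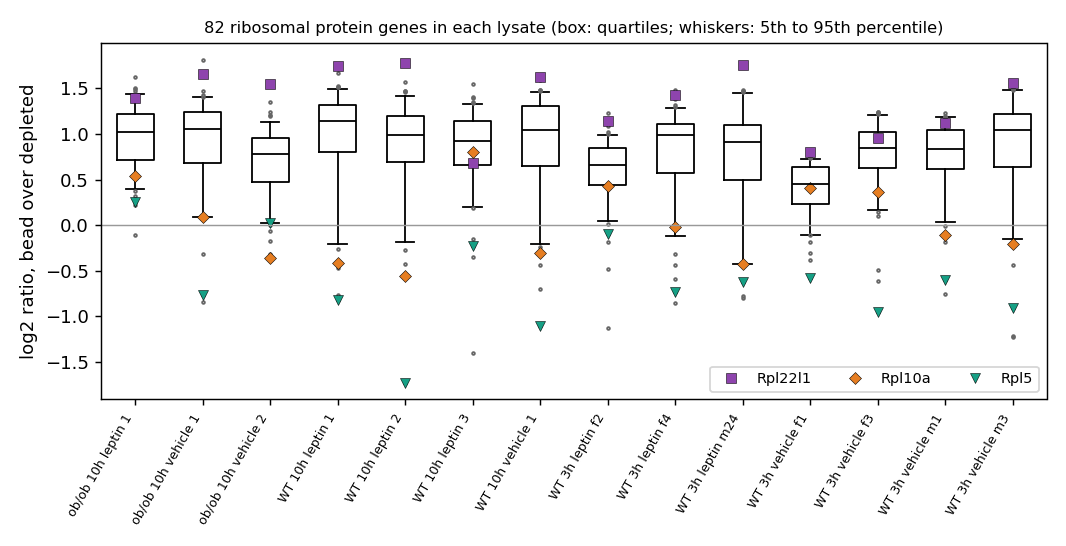
Log2 ratio of bead over depleted CPM for the 82 genes in each of 14 lysates (boxes span the quartiles, whiskers the 5th to 95th percentile, and dots are genes beyond them), with Rpl22l1, Rpl10a and Rpl5 marked. The medians lie between 0.45 and 1.14; Rpl22l1 lies above the box in most lysates, Rpl10a falls on both sides of 0 and Rpl5 is mostly below it.

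The enrichment held in each genotype and time. In ob/ob mice at 10 h, 72 genes were higher and 0 lower (all genes, 24.8% higher), with a median of 0.96. WT mice at 10 h had 73 higher and 1 lower (all genes, 34.0% higher; median 1.07), and at 3 h 74 higher and 2 lower (33.8%; median 0.84). The difference of the enrichment between ob/ob and WT at 10 h passed in 0 genes (median -0.06; 0.142% of all genes passed in either direction; 3 genes had an unadjusted p below 0.05). Between WT 10 h and WT 3 h the difference also passed in 0 genes in edgeR, although 77 of 82 were above 0 (median 0.21), 20 had an unadjusted p below 0.05, and 0.432% of all genes passed. The smallest adjusted p was 0.0592 for Rpl34, at 0.42 ± 0.10. DESeq2 called 3 of the genes in this difference, Rpl34, Rpl38 and Rpl3. Both differences pool leptin and vehicle lysates, in unequal mixes. These were 1 leptin and 2 vehicle in ob/ob, 3 and 1 in WT at 10 h, and 3 and 4 in WT at 3 h. Treatment therefore enters both differences. Markers of other cells moved with this comparison in beads: the 8 endothelial and mural markers summed to 19.0 to 30.9 CPM at 10 h against 43.4 to 165 CPM at 3 h, with none at 0, and the glial index was 3.51 to 4.61 against 4.06 to 5.49. Their part was not tested. Leaving out WT 3 h vehicle lysate m3, WT 3 h leptin lysate m24 or WT 3 h leptin lysate f4 gave 4, 2 and 1 calls in edgeR.

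Related gene lists were read against the 38.6% higher and 39.3% lower over all genes. Among the ribosomal proteins that the naming rule leaves out, Rack1 (0.67 ± 0.04) and Fau (0.75 ± 0.09) were higher. Of 14 other TOP messages, 12 were higher, among them the elongation factors Eef1b2 (0.94) and Eef1a1 (0.87), and 2 were lower, Pabpc1 and Hnrnpa1 (median 0.58). Of 32 ribosome assembly genes tested, 28 were higher and 2 lower, with Nop10 at 1.33, Polr1d at 1.10 and Polr1b at -0.33 (median 0.41). Mitochondrial ribosomal protein genes were higher in 74 of 77 and lower in 1 (median 0.52). The 20 genes of mTORC1 and TOP control had 9 higher and 8 lower (median 0.01), shares close to those over all genes: Rheb was higher by 0.63 ± 0.05, while Mtor was at -0.58 ± 0.11 and Ddit4, an mTORC1 inhibitor, at -0.61 ± 0.04. These lists were chosen with earlier results of these data known, and all genes tested had a median of -0.01.

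Length was taken as the median over a gene's protein-coding transcripts, which 81 of the 82 genes have. The 46 ribosomal protein genes of up to 750 bases had a median log2 fold change of 0.97, and 41 of them were higher. Other genes of that length had a median of 0.22 and 53.9% were higher, and other genes above 4000 bases had a median of -0.21 and 25.04% were higher. In the class of 1000 to 1500 bases the medians were 0.81 for 11 ribosomal protein genes and 0.23 for 2122 other genes. The part of transcript length in the enrichment was not tested.

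Leptin left the ribosomal protein genes without a call in either fraction. In beads, 0 of 82 genes passed at 3 h in WT, 0 at 10 h and 0 in the fit of a response shared by all strata (edgeR; 0.0220% of all genes passed in each), and the unadjusted p was below 0.05 for 0, 3 and 1 genes. The medians were -0.01, 0.09 and 0.04. In the depleted fraction, 0 genes passed at 3 h (all genes, 0%), at 10 h (0.00523%) and in the shared fit (0.623%), with 6, 1 and 2 genes at an unadjusted p below 0.05 and medians of -0.03, 0.04 and 0.00. The difference of the leptin effect between beads and the depleted fraction likewise passed in 0 genes at 3 h (0.0102% of all genes) and at 10 h (0%), with 2 and 1 genes at an unadjusted p below 0.05. DESeq2 called 0 genes in these comparisons except Rpl27 in beads at 10 h. In simulated data the edgeR fit of leptin in beads at 3 h called 36.2% of genes changed 1.5-fold and 79.5% of those changed 2-fold. The simulation gave every gene the same dispersion and drew the changed genes from all genes tested. In the real fit the SE of the ribosomal protein genes ran from 0.12 for Rps15a to 0.63 for Rpl3, so recovery of single genes can differ. The lack of calls therefore does not show that smaller changes were absent. Recovery was not tested for the other leptin fits.

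Rpl27 had the smallest p of the ribosomal protein genes in beads at 10 h. It was at 10.7 CPM in the ob/ob leptin library and 7.82 and 6.38 CPM in the ob/ob vehicle libraries, and at 9.07, 7.99 and 11.3 CPM in the WT leptin libraries and 5.49 CPM in the WT vehicle library. Leptin libraries were above vehicle libraries in both genotypes (log2 fold change 0.70 ± 0.17, edgeR adjusted p = 0.271; DESeq2 adjusted p = 0.0313), and only 1 WT vehicle library stood against them. At 3 h Rpl3 had the smallest p in beads, with 1.17 ± 0.63 (edgeR adjusted p = 0.701). Rps27a was at 0.34 ± 0.20 there. In the depleted fraction Rpl3l had the smallest p at 3 h (0.71 ± 0.29, adjusted p = 0.479), followed by Rpl30 (-0.79 ± 0.32, adjusted p = 0.506), and at 10 h Rpl32 (0.15 ± 0.05, adjusted p = 0.432), followed by Rps29 (-0.34 ± 0.19, adjusted p = 0.635). Rpl28 was at 0.37 ± 0.17 in beads at 10 h. In the shared fits the smallest p belonged to Rpl36al (0.32 ± 0.14) and Rpl27 (0.24 ± 0.15) in beads and to Rpl10a (-0.21 ± 0.09) and Rpl5 (-0.29 ± 0.13) in the depleted fraction, none passing. For the difference between fractions they were Rpl3l (-1.12 ± 0.44) and Rpl3 (0.36 ± 0.16) at 3 h and Rpl27 (0.69 ± 0.19) and Rpl29 (0.43 ± 0.23) at 10 h, also not passing. Rps6, the S6 kinase substrate, was at 4.95, 5.32 and 3.90 CPM in beads of leptin lysates at 3 h and 4.94, 6.13, 5.83 and 4.28 CPM in those of vehicle lysates, so the groups overlapped. Rpl10a was at -0.41 ± 0.28 in beads at 3 h and 0.40 ± 0.31 at 10 h, neither passing. Glial markers moved with the arms in beads: the glial index was 3.51 to 3.83 in WT 10 h leptin libraries against 4.61 in the WT 10 h vehicle library. With the index as a covariate the bead median at 10 h became -0.28 and that of the shared fit -0.20, and still 0 genes passed.

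In the depleted fraction, ob/ob mice had higher ribosomal protein messages than WT mice at 10 h. There, 19 of 82 genes were higher and 0 lower (edgeR), while 2.72% of all genes were higher and 2.85% lower, and the median was 0.13 against 0.00 over all genes. Rplp2 had 90.5, 99.4 and 94.9 CPM in ob/ob libraries and 76.0, 70.4, 70.2 and 65.6 CPM in WT libraries, without overlap (0.47 ± 0.06, adjusted p = 0.00155). Rps2, a small subunit protein at the entry of the mRNA channel, had 64.9, 70.9 and 66.7 CPM in ob/ob libraries and 56.4, 52.6, 54.97 and 46.7 CPM in WT libraries, also apart (0.42 ± 0.08, adjusted p = 0.0114). The largest called changes were those of Rpl36 (0.57 ± 0.15) and Rpl35 (0.49 ± 0.10), followed by Rplp2, Rps2, Rps27l (0.41 ± 0.10) and Rpl35a (0.40 ± 0.08). Rpl34 had 60.7, 65.1 and 52.6 CPM in ob/ob libraries and 42.6, 29.9, 27.9 and 31.2 CPM in WT libraries, but its log2 fold change of 0.91 ± 0.24 missed the threshold (adjusted p = 0.0625). Rpl36 lost its call in several alternatives (adjusted p up to 0.116), and Rps27l lost its call without WT 10 h leptin lysate 2 or 3 or ob/ob vehicle lysate 1.
In beads, 0 genes passed for ob/ob over WT (all genes, 0.472%; median 0.12), with 4 at an unadjusted p below 0.05 and Rpl34 and Rplp2 at the smallest p (0.68 ± 0.27 and 0.38 ± 0.16). In the difference of the enrichment between ob/ob and WT given above, 0 genes passed. That fit pools leptin and vehicle lysates, which are mixed unequally in the genotypes, whereas the contrast here gives both treatments equal weight. Whether this contrast differs between fractions was therefore not tested as such. The count of 19 dropped to 10 without ob/ob vehicle lysate 1, to 11 without WT 10 h leptin lysate 2 and to 12 without WT 10 h leptin lysate 3. The lone ob/ob leptin lysate and the lone WT 10 h vehicle lysate could not be left out. Each weighs as much in this contrast as the other treatment group of its genotype. All 5 erythrocyte markers were also higher in ob/ob depleted libraries (median 1.10), where they summed to 57.2 to 60.3 CPM against 25.7 to 37.1 CPM in WT 10 h libraries, with none at 0. The 6 pituitary markers summed to 4.38 to 147 CPM in ob/ob depleted libraries and 4.61 to 7.89 CPM in WT 10 h ones, with 1 at 0 throughout. Growth hormone was at 121 CPM in the depleted ob/ob leptin library and at most 1.52 CPM in depleted WT 10 h libraries. The part of the erythrocyte and pituitary markers in the result was not tested.

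Also in the depleted fraction, WT mice at 10 h had lower levels than WT mice at 3 h for 18 of 82 genes and a higher level for 1 (edgeR; all genes, 4.01% lower and 3.17% higher), with a median of -0.07 against -0.01 over all genes. Rplp1 had 153, 141, 144 and 133 CPM at 10 h and 173 to 218 CPM at 3 h (median 189), without overlap, and fell by 0.46 on the log2 scale (SE 0.07, adjusted p = 0.00348). Rpl36 (-0.48 ± 0.12), Rpl35 (-0.36 ± 0.08), Rpl28 (-0.35 ± 0.08) and Rpl41 (-0.34 ± 0.06) and Rpl13a (-0.32 ± 0.06) fell as well. Rpl36 lost its call without WT 3 h leptin lysate f2 or f4 or WT 10 h leptin lysate 2 or 3, and Rpl28 without WT 3 h leptin lysate m24. Rpl38 was the gene that rose: it had 24.8, 22.6, 23.0 and 20.5 CPM at 10 h and 15.7 to 18.9 CPM at 3 h (median 17.4), a log2 fold change of 0.35 ± 0.06 (adjusted p = 0.00660).
In beads Rpl38 showed the same order, with 62.4, 52.3, 54.99 and 51.2 CPM at 10 h and 24.6 to 36.1 CPM at 3 h, and the groups did not overlap (0.80 ± 0.14). Its edgeR adjusted p was 0.136, while in DESeq2 it was 0.000440. In edgeR 0 of all genes passed in this comparison (0%), and 11 ribosomal protein genes had an unadjusted p below 0.05. Without WT 3 h vehicle lysate m3 edgeR gave Rpl38 an adjusted p of 0.0273. The 18 lower genes became 10 without WT 3 h leptin lysate m24, 11 without WT 3 h leptin lysate f2, and 10 without either WT 10 h leptin lysate 2 or 3. Of the 5 erythrocyte markers, 3 were lower at 10 h, with sums of 25.7 to 37.1 CPM against 37.4 to 47.7 CPM at 3 h; their part was not tested. This comparison and that of ob/ob with WT share the 4 WT 10 h libraries, so a shift in those libraries enters both with opposite sign. The lone vehicle library among them could not be left out of either comparison, and it weighs as much as the leptin libraries together.

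**Figure D4:**
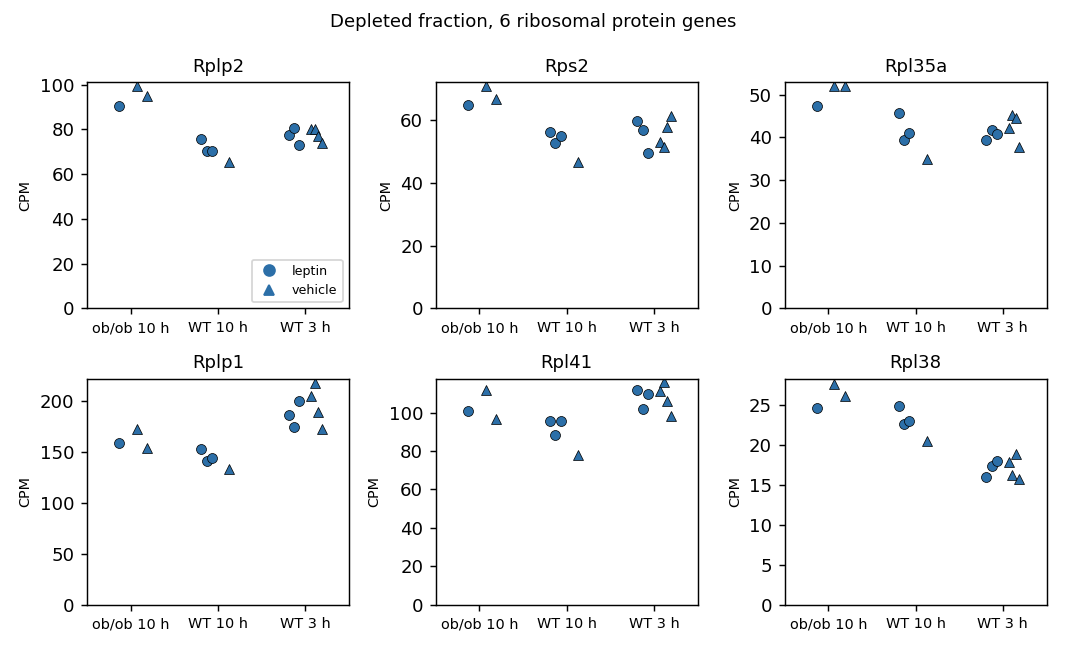
CPM of 6 ribosomal protein genes in the depleted libraries of ob/ob 10 h, WT 10 h and WT 3 h mice (circles, leptin; triangles, vehicle; each point 1 library, axes from 0). Rplp2 and Rps2 are higher in ob/ob than in WT at 10 h, Rplp1 is lower at 10 h than at 3 h in WT, and Rpl38 is higher at 10 h than at 3 h.

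A few genes varied widely over the lysates. Over the 14 depleted libraries the highest value was 1.40 times the lowest for the median gene, with quartiles of 1.27 and 1.62, but 6.74 times for Rpl3, 4.72 for Rpl29, 3.54 for Rpl24, 3.23 for Rpl30 and 2.77 for Rpl34, a range that for Rpl34 includes the values of ob/ob and WT mice given above. Rpl3, which forms part of the peptidyl transferase centre of the large subunit, had 4.05 CPM in beads and 3.75 CPM in depleted RNA of WT 3 h vehicle lysate m1, and 3.10 CPM in beads and 3.03 CPM in depleted RNA of WT 3 h vehicle lysate m3. All other lysates had 14.5 to 44.2 CPM in beads and 8.91 to 20.5 CPM in depleted RNA. The row of its pseudogene Rpl3-ps1 ran the other way, with 27.1 and 24.2 CPM in depleted RNA of m1 and m3 against 14.9 to 23.8 CPM in the other lysates. Rpl3 summed with its pseudogene rows varied 1.36 times over the depleted libraries, and its enrichment in beads was then 0.94 ± 0.05, compared with 0.77 ± 0.08 for Rpl3 alone. Rpl3 has 14.4% unique 50-base windows.
Both low lysates were vehicle lysates, so the 3 h leptin contrasts of Rpl3 rest on them. Every WT 3 h lysate whose name starts with m was below every one whose name starts with f in depleted RNA, the m leptin lysate m24 included, but not in beads. The labels do not explain these letters, which were not a term in the fits. In depleted RNA Rpl3 had 15.7, 20.5 and 8.91 CPM in leptin libraries (f2, f4 and m24) and 15.1, 9.39, 3.75 and 3.03 CPM in vehicle libraries. Rpl34 did not follow this pattern, since summing left its spread at 2.696 times.

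**Figure D5:**
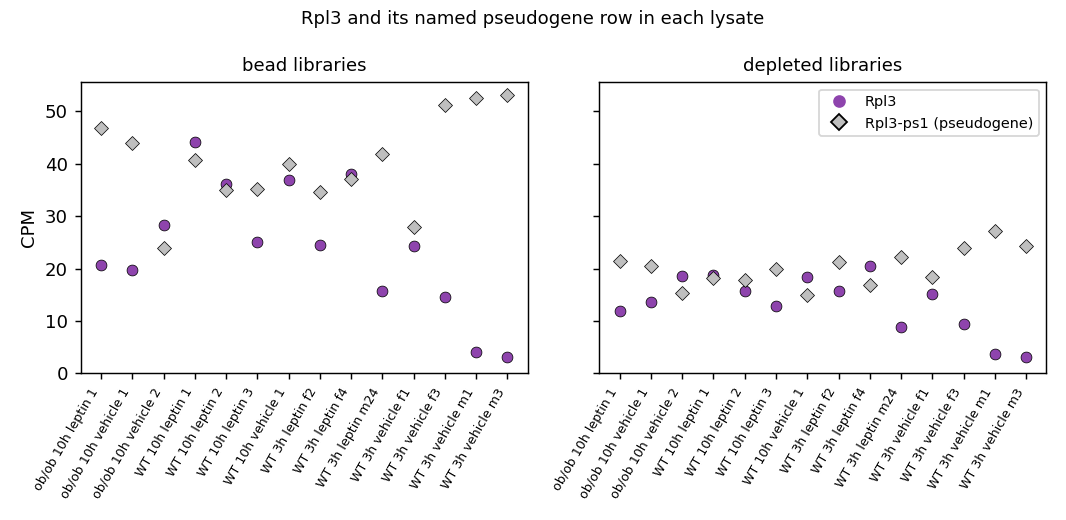
CPM of Rpl3 (purple circles) and of its pseudogene row Rpl3-ps1 (grey diamonds) in bead and depleted libraries of each lysate. Rpl3 is near 3 to 4 CPM in both fractions of WT 3 h vehicle lysates m1 and m3, where Rpl3-ps1 is at its highest.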

How the data were processed

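Per the labels' protocols, poly(A)-selected libraries that do not mark the strand were sequenced as single-end reads of 50 cycles. The submitters' processing notes name STAR 2.7.6a and build GRCm38.p6; the counting program, its strand setting and its handling of reads with several matches are unstated. The authors deposited raw counts per gene for 28 libraries. From these, edgeR 4.0.16 (R 4.3.3) was used with TMM scaling, a filter of 10 counts in 3 libraries, the robust quasi-likelihood test (two-sided) and Benjamini-Hochberg adjustment over all genes tested (threshold 0.05); SE is that of the log2 fold change. Bead and depleted libraries come from the same lysate, so the lysate was a block in those fits; for each of the 12 lysates in groups of 2 or more, bead deviations from the group mean followed those of its own depleted library most closely (r 0.0696 to 0.282). A lone library is assumed to vary like the other groups. Levels are TMM-scaled CPM; the depth behind them is given with the results. DESeq2 1.42.0 was an alternative. Some of the fits were tested on simulated data. Uniqueness used 50-base windows of GENCODE M21 transcripts, in which all 87 genes were found. Genes named were Rpl10a, the 6 highest and 6 lowest in the bead comparison, called members or those with the smallest p elsewhere, and members chosen by role; Rpl34, Rpl29 and Rpl30 were added after their values were seen. Some single genes are not reported here, though counts and medians include them. The members and lists were chosen with earlier results of these data known.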

Additional observations from a re-analysis of the deposited data

Results flagged for a closer look

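In the groups of 4 WT 3 h vehicle libraries, 6 values lay far from the other 3 by Dixon's criterion, of 62 checks made; chance gives about 1 in 20. In beads of lysate f1, Rps19 was at 95.7 CPM (the others 135 to 142), Rpl36a at 12.6 CPM (17.4 to 17.8) and Rps27 at 4.32 CPM (5.72 to 5.88). That bead library also had the lowest share of ribosomal protein counts, 0.711%, and the highest glial index among beads, 5.49. Rpl5 was at 2.33 CPM in beads of lysate m1 (the others 1.73 to 1.82). In the depleted fraction, Rps6 was at 3.14 CPM in lysate m3 (3.80 to 3.84) and Rpl10 at 5.63 CPM in lysate f3 (4.52 to 4.66).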

How the results depend on the processing

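Over all 14 lysates, 74 genes were higher in beads whichever lysate was left out, with 2 to 3 lower and medians of 0.90 to 0.96. Scaling by library totals alone moved the median of all genes to -0.19 and left 35.2% of calls higher, against 49.6% with TMM; the medians of the ribosomal protein genes became 0.76 over all lysates, 0.68 in WT 3 h, 0.85 in WT 10 h and 0.80 in ob/ob, with 4, 4 and 2 genes lower in the first 3 of these. Rps10 (-0.36) and Rps13 (-0.37) then passed as lower. The count of lower genes was 1 without lysates m3 and f2, 1 with vehicle lysates only and 1 without the replicate block, where 74 were still higher and the other counts of calls stayed within 1.5 times. Summed with pseudogene rows, 0 genes were lower over all lysates, 0 in WT 3 h and 0 in WT 10 h, and Rps10, Rps13, Rpl24 and Rpl5 changed sign, to 0.42, 0.65, 0.22 and 0.066. Leaving out 1 lysate gave 1 to 3 lower genes in WT 3 h and 1 to 3 in WT 10 h. The cause of these changes was not tested.

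For the difference between WT 10 h and WT 3 h, DESeq2 called 3 genes, no filter on counts 5, and the fit without m3 and f2 called 1; leaving out 1 lysate gave 0 to 4. With no filter, leptin called 1 gene higher and 1 lower in beads at 3 h, 1 higher in beads in the shared fit, 1 higher and 1 lower in depleted RNA at 3 h and the same in the shared fit. DESeq2 called 1 gene in beads at 10 h. With the glial index as a covariate the leptin medians were -0.28 (beads, 10 h), -0.20 (beads, shared), -0.070 (depleted, 3 h) and 0.018 (depleted, 10 h). Without m3 and f2 the depleted median at 3 h was -0.062, and that of the difference between fractions at 3 h was 0.20. The depleted median at 10 h ranged from 0.0074 to 0.049 when 1 lysate was left out. For ob/ob over WT in beads, no filter gave 1 higher and 1 lower; in depleted RNA, leaving out 1 lysate gave 10 to 20 higher and medians of 0.10 to 0.14. For 10 h over 3 h in beads, DESeq2 called 2 higher, no filter 7 higher and 1 lower, and the fit without m3 and f2 called 1; leaving out 1 lysate gave 0 to 1. In depleted RNA, library totals, DESeq2, no filter and pseudogene sums each gave 2 higher, with a median of -0.045 for library totals; leaving out 1 lysate gave 1 to 2 higher, 10 to 20 lower and medians of -0.089 to -0.049. Of the values of single named genes, 1626 kept direction and call, 22 lost and 25 gained a call, and 4 changed sign. Genes below 3 CPM rest on few reads. The lone WT 10 h vehicle lysate and the lone ob/ob leptin lysate could not be left out of the fits of leptin at 10 h and of ob/ob over WT. The WT 10 h vehicle lysate could also not be left out of 10 h over 3 h. In these fits each weighs as much as the other treatment group of its genotype, so the ranges given do not cover its effect.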
